A study of Mus musculus with 6 samples.

Results

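Cathepsins are the proteases of the lysosome, and cystatins are the proteins that block many of them. The 10 genes described here are the 8 cathepsin genes Ctsa, Ctsb, Ctsd, Ctsh, Ctsk, Ctsl, Ctss and Ctsz and the cystatin genes Cst3 and Cstb. They were taken by gene symbol, with no cut on their values, from the 55364 genes listed in the counts. Earlier results of these data were known when the genes were chosen. Each of the 10 had reads in every library. RNA was measured in primary mouse lung fibroblasts (LFs) with Quant-seq, a method that sequences the 3′ end of polyadenylated transcripts, in 3 wt libraries and 3 libraries labelled TKS5 KO. All 6 cultures had been held for 24 h in serum-free medium with 10 ng/ml TGF-β1, the cytokine that turns LFs into contractile, matrix-producing myofibroblasts, so no culture without TGFβ enters the comparison. The LFs came from C57Bl6/J mice of 8-10 weeks and were used at passage 2-3. The study's methods name the mutant LFs Tks5+/-, that is, heterozygous for a Sh3pxd2a allele from which an exon is deleted in all tissues, with wt littermates as controls, and homozygous mutants were not obtained. Sh3pxd2a encodes Tks5, the scaffold protein of podosomes, which are the actin-rich protrusions that degrade matrix.

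Cathepsins are made as inactive precursors, tagged with mannose 6-phosphate, sorted into endosomes and lysosomes and activated there at low pH. Most belong to the papain family of cysteine proteases, while Ctsd is an aspartic protease and Ctsa a serine carboxypeptidase. In fibroblasts they digest endocytosed proteins, collagen among them, and some are secreted and act on the matrix outside the cell. Macrophages are rich in the same enzymes. Cystatins bind the active site of papain-type cathepsins and do not inhibit Ctsd or Ctsa.

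Of the 10 genes, 4 fell in the libraries labelled TKS5 KO (Ctsd, Ctsa, Ctsz and Ctsb) and 4 rose (Ctsl, Ctsk, Cst3 and Cstb), while Ctss and Ctsh did not pass the test. A gene was called when edgeR's quasi-likelihood test gave an adjusted p under 0.05, over all genes tested, and a fold change of at least 1.2. All 10 genes passed the filter on low counts, and 10346 genes were tested. Among all of these, 44.9% were called, 22.8% as higher and 22.1% as lower. The members' median log2 fold change was -0.77, beside a median of -0.05 over all genes tested. The CPM (counts relative to the scaled library size) of the 2 genotypes did not overlap for 9 of the 10 members, 5 of them lower and 4 higher where the label was TKS5 KO, beside 53.8% of all genes tested, 27.6% lower and 26.1% higher. With 3 libraries against 3, the exact two-sided permutation test cannot give a p under 0.1, which is the value each of these 9 genes had.

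The libraries held between 1344507 and 2369882 counts. The labels do not say that the libraries of a genotype came from separate mice, so the p-values measure the spread between these libraries only. Sh3pxd2a itself had 113 ± 16.5 CPM in wt LFs and 138 ± 11.1 CPM in the libraries labelled TKS5 KO (mean ± SD, n = 3), a log2 fold change of 0.29 with a 95% interval from -0.13 to 0.71 (edgeR, adjusted p = 0.249). The study reported reduced Tks5 mRNA in Tks5+/- LFs by Q-RT-PCR, and no such fall was seen here. Quant-seq reads lie at the 3′ end and not in the deleted exon. Whether the mutant allele lowers the reads at that end was not tested. The genotype could thus not be checked from this gene, and each direction below rests on the labels. None of 10 fibroblast markers was at 0 in any library, 4 of them being called higher (Vim, Thy1, Pdgfra and Col3a1), 1 lower (Pdgfrb) and 5 neither. Without wt replicate 3, 2 were called higher and 2 lower, beside 20.2% and 18.0% of all genes. Pdgfra and Col3a1 were not called there (edgeR adjusted p = 0.102 and 0.214). The counts of a gene rise with the number of cells of a type and with the RNA per cell, and these cannot be told apart in bulk RNA. Library wt replicate 3 stood apart by raised macrophage genes, and values without it are given with the members it moves.

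**Figure D1:**
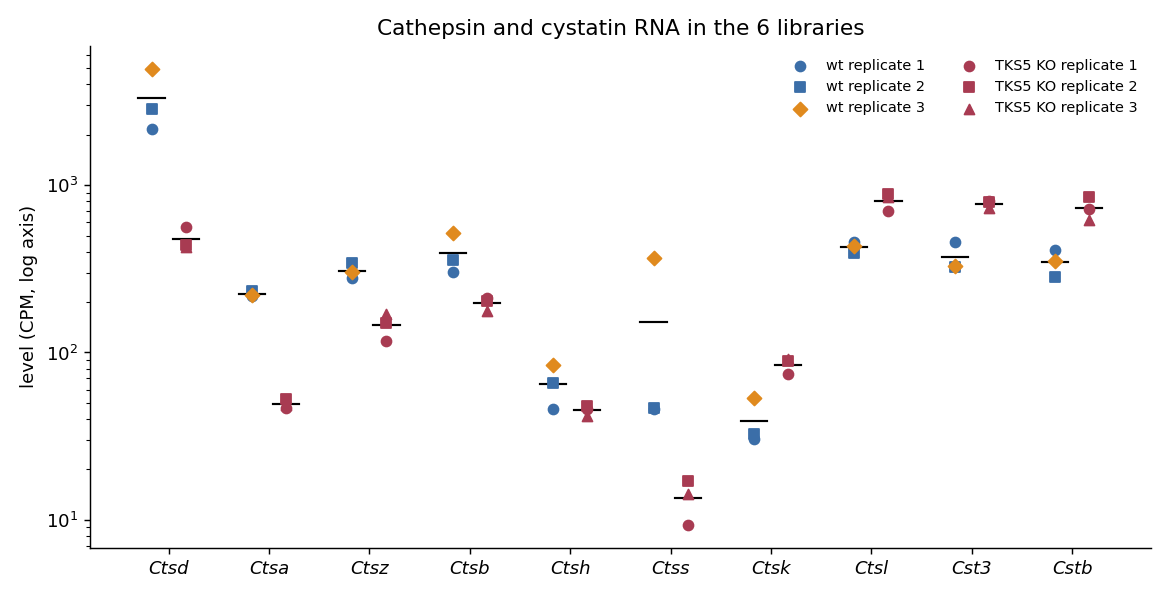
Level of each gene in CPM (log axis) in the 3 wt libraries (left of each gene name, wt replicate 3 as an orange diamond) and the 3 libraries labelled TKS5 KO (right), with a bar at the mean of each genotype. The points of the genotypes overlap for Ctsh and for no other gene, and wt replicate 3 lies far above the other wt libraries for Ctss.

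A short sequence found near the start of some of these genes is the binding motif of TFEB and its relatives, the transcription factors of lysosomal genes. The palindromes CACGTG (the E-box core) and TCACGTGA (the longer form, which contains the first) were searched on both strands in the RefSeq promoter sequences of GRCm38.p6, 250 bases before to 50 bases after each start. The table held promoters of 7 of the 10 genes and none for Ctsb, Ctsh and Cstb. CACGTG stood in 7.15% and TCACGTGA in 0.974% of the 32851 promoters in the table. The motifs were found for Ctsd and Ctsa, the genes with the largest called falls, and for Ctsl, which rose, and they are shown to set these genes side by side, with the motif in capitals.
Ctsd, chr7:142387908-142387937, minus strand: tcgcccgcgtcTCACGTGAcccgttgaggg
Ctsd, chr7:142388048-142388077, minus strand: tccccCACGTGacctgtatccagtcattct
Ctsa, chr2:164833749-164833778, plus strand: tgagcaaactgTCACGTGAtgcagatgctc
Ctsa, chr2:164833766-164833795, plus strand: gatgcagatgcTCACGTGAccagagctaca
Ctsl, chr13:64370739-64370768, minus strand: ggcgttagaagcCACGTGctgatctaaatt
The first Ctsd site, both Ctsa sites and the Ctsl site lie in the untranslated part of an exon in the GENCODE M21 annotation, and the second Ctsd site lies just outside the gene. Neither motif occurred in the promoter windows of Ctsk, Ctss, Ctsz and Cst3. Ctsa had another window, chr2:164832622-164832921, which holds the annotated start of the gene, and neither motif occurred there. A match describes the letters in these windows and was not tested for binding.

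Ctsd, the aspartic endopeptidase that starts much of the protein breakdown in lysosomes, showed the largest fall of the called members (GRCm38, chr7:142375911-142388038, minus strand). Its level was 2174, 2853 and 4961 CPM in wt replicates 1 to 3, and 559, 439 and 425 CPM in the libraries labelled TKS5 KO. The mean fell from 3329 ± 1454 to 474 ± 73.4 CPM (SD, n = 3), which was 7.02-fold or -2.81 on the log2 scale (SE 0.27, edgeR adjusted p = 9.39e-08). The lowest wt library was still far above the highest library labelled TKS5 KO. Wt replicate 3 had 1.97 times the mean of the other wt libraries, and without it the log2 fold change was -2.41 (edgeR adjusted p = 5.66e-09). In counts, Ctsd took 0.251%, 0.324% and 0.565% of all reads in wt LFs and 0.0356% to 0.0514% in the other libraries.

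Ctsa, also known as protective protein, is a carboxypeptidase that stabilizes lysosomal beta-galactosidase and neuraminidase (chr2:164832873-164841032, plus strand). It had 218, 232 and 219 CPM in wt LFs and 46.6, 52.7 and 48.6 CPM in the libraries labelled TKS5 KO, so the groups lay far apart and each was tight. The difference was 4.52-fold, with a log2 fold change of -2.18 (SE 0.21, edgeR adjusted p = 5.61e-08), and wt replicate 3 was not raised. These reads cannot be assigned to Ctsa alone. The 3′ end of Ctsa overlaps by 1515 bases the gene Pltp on the opposite strand, which encodes the phospholipid transfer protein. Pltp had 330, 422 and 580 counts for wt LFs and 82, 85 and 95 in the other libraries, where Ctsa had 338, 434, 591, 85, 90 and 95. The counts of the pair differed by at most 5.56% in any library, so the fall is that of the pair.

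Ctsz, a carboxypeptidase of the papain family that is abundant in immune cells, behaved likewise (chr2:174427493-174439039, minus strand). Its level was 278, 345 and 303 CPM in wt LFs and 117, 151 and 169 CPM in the libraries labelled TKS5 KO, without overlap. The difference was 2.11-fold, with a log2 fold change of -1.08 (SE 0.21, edgeR adjusted p = 2.22e-04). Its 3′ end overlaps by 10 bases that of Nelfcd, a subunit of the complex that pauses RNA polymerase II, on the opposite strand. The counts of Ctsz and Nelfcd differed by at most 0.856% in any library, from 432 against 429 in wt replicate 1 to 331 against 329 in the last library. The reads at this end cannot be told apart either.

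Ctsb, a cysteine protease with both endopeptidase and peptidyl-dipeptidase activity, fell 2.00-fold (chr14:63122462-63145923, plus strand). It had 304, 357 and 518 CPM in wt LFs and 212, 202 and 178 CPM in the libraries labelled TKS5 KO, so the groups did not overlap and the gap between them was narrow beside the spread of the wt libraries. The log2 fold change was -0.998 (SE 0.22, edgeR adjusted p = 7.98e-04), and it was -0.75 without wt replicate 3, which had 1.57 times the mean of the other wt libraries. Ctsb overlaps by 774 bases at its 3′ end the gene Fdft1, the squalene synthase, on the opposite strand. Here the counts were not the same. Fdft1 had 348, 382 and 466 counts for wt LFs and 406, 394 and 468 in the other libraries, with a log2 fold change of 0.21 that did not pass the test (edgeR adjusted p = 0.410), while Ctsb had 473, 668 and 1398 against 387, 345 and 347. How many reads the pair shares was not tested.

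**Figure D2:**
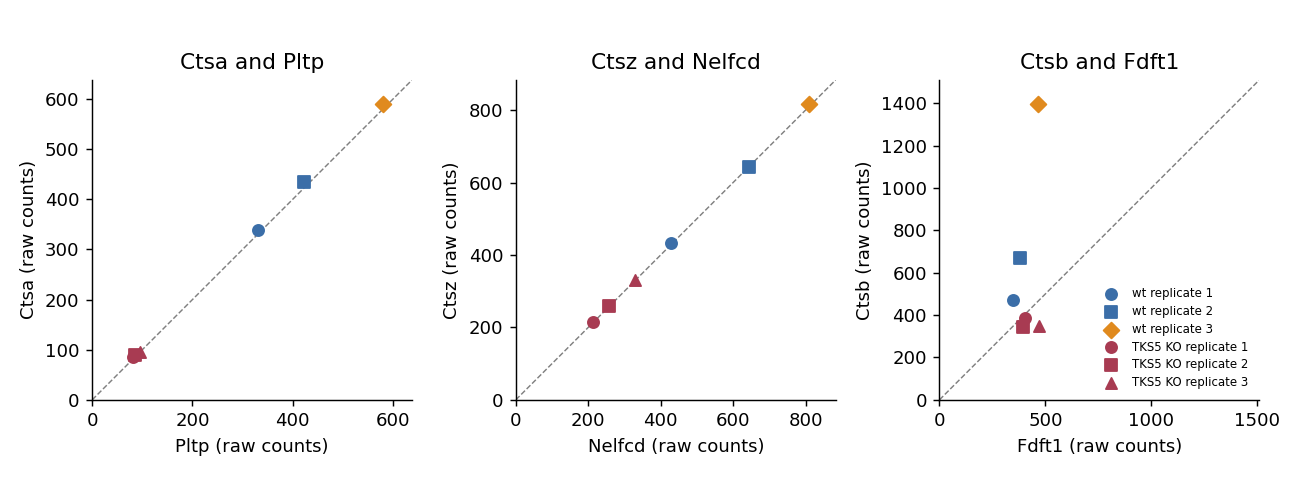
Raw counts of Ctsa, Ctsz and Ctsb against those of the gene at the same 3′ end on the opposite strand, 1 point per library, with a dashed line at equal counts. Ctsa and Pltp differ by at most 5.56% and Ctsz and Nelfcd by at most 0.856%, while Ctsb lies above Fdft1 in the wt libraries and below it in those labelled TKS5 KO.

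Such pairs were found elsewhere too. Of 10339 tested genes with coordinates, 457 (4.42%) had a neighbour on the opposite strand within 500 bases of the 3′ end whose counts were within 10% of their own in every library. For the remaining 7 members no other gene with more than a few counts lay at the 3′ end. With the sharing members left out, an alternative chosen after seeing the data, 2 members were lower (Ctsd and Ctsb) and the same 4 were higher.

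Ctsh, an aminopeptidase of the papain family that also processes surfactant proteins, did not pass the test (chr9:90054152-90076089, plus strand). Its level was 45.7, 65.3 and 84.2 CPM in wt LFs and 46.1, 48.0 and 42.0 CPM in the libraries labelled TKS5 KO, on 71 to 227 counts per library. The groups overlapped, since wt replicate 1 lay within the range of the other genotype. The log2 fold change was -0.53 (SE 0.24, edgeR adjusted p = 0.0684, exact permutation p = 0.3). It was called in 5 of 21 alternative analyses, among them without wt replicate 1 (log2 fold change -0.73, edgeR adjusted p = 0.0214), and without wt replicate 3 the value was -0.30 (edgeR adjusted p = 0.380). Over all 21 alternatives the adjusted p ran from 0.00264 to 0.380.

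Ctss, an endopeptidase that remains active at neutral pH and trims the invariant chain in antigen-presenting cells, was the member that turned most on a single library (chr3:95526786-95556403, plus strand). Its counts were 71, 87 and 988 in wt replicates 1 to 3, and 17, 29 and 28 where the label was TKS5 KO. In CPM this was 45.7, 46.6 and 366 against 9.33, 17.0 and 14.3, so wt replicate 3 had 7.94 times the mean of the other wt libraries. Only 0.0387% of the tested genes had as high a ratio. All 3 wt libraries were above the others, yet the log2 fold change of -3.52 had a 95% interval from -6.78 to -0.25 and did not pass the test (edgeR adjusted p = 0.0808). Without wt replicate 3 it was smaller, -1.77, and was called (edgeR adjusted p = 3.98e-05, 38.2% of all genes tested being called there). DESeq2 on all 6 libraries also called it (adjusted p = 0.00241), while the adjusted p over the 21 alternatives ran from 3.98e-05 to 0.202.

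The summed macrophage markers moved with Ctss. The 27 markers of the list summed to 489, 413 and 2488 CPM in wt replicates 1 to 3 and to 156, 167 and 162 CPM in the libraries labelled TKS5 KO. Lyz2, the lysozyme of myeloid cells, had 298, 337 and 3502 counts in wt LFs against 139, 157 and 207. The 7 defining markers (Adgre1, Csf1r, C1qa, C1qb, C1qc, Ptprc and Tyrobp) summed to 78.5, 59.9 and 272 CPM against 39.0, 41.0 and 29.7 CPM. Adgre1, which encodes the macrophage surface protein F4/80, had 7, 10 and 34 counts for wt LFs and 0 in every library labelled TKS5 KO, and Ptprc, the leukocyte antigen CD45, had 4, 1 and 15 against 0 in each. C1qb had 5, 10 and 69 against 2, 5 and 0. C1qa had 16, 11 and 129 against 14, 7 and 15, and its groups overlapped. C1qc had 3, 3 and 59 against 10, 11 and 7 and overlapped too. Without wt replicate 3 the log2 fold change was -0.29 for C1qa and 1.51 for C1qc. Neither was called there (edgeR adjusted p = 0.676 and 0.0981). Tyrobp and Csf1r, which make up much of the sum of the 7 defining markers, have counts close to those of the opposite-strand genes Hcst and Hmgxb3. Of the 27 markers 1, 2 and 0 were at 0 in wt replicates 1 to 3, and 8, 12 and 10 in the other libraries. Of 14 markers tested, 7 were called lower and 0 higher, beside 22.1% and 22.8% of all genes, and 10 were lower without wt replicate 3, where 18.0% of all genes were. Markers such as Adgre1 passed the filter on low counts only through the wt libraries. Such a gene can be called lower but not higher, so the shares of all genes are not a like comparison for these counts.

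Per 100 CPM of macrophage markers, Ctss had 9.35, 11.3 and 14.7 CPM in wt LFs and 5.96, 10.2 and 8.86 CPM in the libraries labelled TKS5 KO. This ratio thus lay between 5.96 and 14.7 while the summed markers lay between 156 and 2488 CPM. Lyz2 was a large part of this sum, at 192, 180 and 1298 CPM in wt LFs and 76.3, 91.9 and 106 CPM in the others. Without Lyz2 the markers summed to 297, 232 and 1189 CPM in wt LFs and to 80.1, 74.9 and 55.8 CPM in the others. The ratio of Ctss to that smaller sum was not taken. Ctsd, in contrast, had 445, 692 and 199 CPM per 100 CPM of markers in wt LFs and 263 to 357 in the other libraries, so wt replicate 3 was lowest on this measure. The summed markers of other cell types were also lower in the libraries labelled TKS5 KO, with levels of 19.3 to 26.6 CPM against 89.4 to 128 CPM for endothelial, 1.17 to 3.84 against 17.1 to 36.0 for epithelial and 5.12 to 14.3 against 27.8 to 38.6 for mesothelial markers. The epithelial and endothelial sums rest on few genes. Sftpc, Sftpb, Sftpa1 and Scgb1a1, all epithelial, had 0 counts in every library. Krt19, in the epithelial and mesothelial lists, had a mean of 1.44 CPM in wt LFs and 2.01 CPM in the others. Egfl7 had 58.6 of the 97.8 CPM of endothelial markers in wt replicate 1 and 19.2 of 21.4 in TKS5 KO replicate 1. The part of macrophages and of these other cell types in the levels of the cathepsins was not tested.

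**Figure D3:**
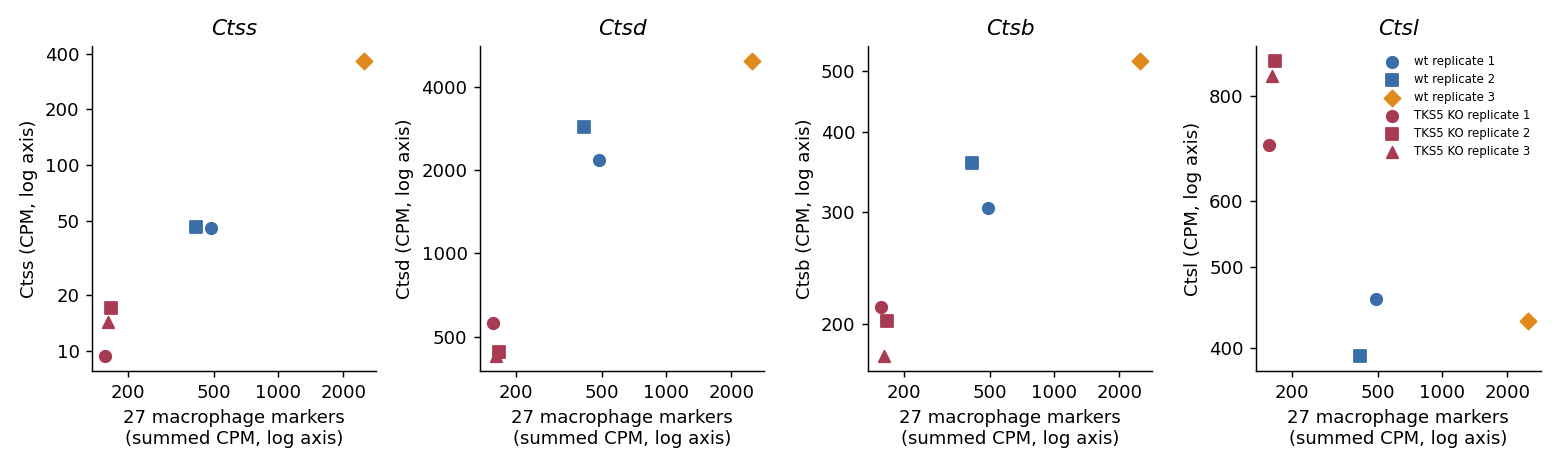
Level of Ctss, Ctsd, Ctsb and Ctsl (CPM, log axis) against the summed level of 27 macrophage markers (CPM, log axis), 1 point per library. Ctss and Ctsd are highest in wt replicate 3, which has 2488 CPM of markers, while Ctsl is 430 CPM there, between the other wt libraries at 458 and 391 CPM.

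Wt replicate 3 was at least 1.5 times the mean of the other wt libraries for 5 members, namely Ctss, Ctsd, Ctsk, Ctsb and Ctsh, beside 9.85% of all genes tested. The ratio lay between 0.84 and 1.01 for Ctsa, Ctsz, Ctsl, Cst3 and Cstb. Of the called members, none lost its call and none changed direction without this library.

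Ctsk and Ctsl, the endopeptidases of the papain family best known for cutting collagen and for general lysosomal proteolysis, went the other way. Ctsk, the collagenase of osteoclasts, which lung fibroblasts also make (chr3:95499256-95509362, plus strand, beside Ctss on the chromosome), had 30.3, 32.6 and 53.8 CPM in wt LFs and 74.6, 88.4 and 91.1 CPM in the libraries labelled TKS5 KO, on 47 to 178 counts. The groups did not overlap, and Ctsk rose 2.14-fold, with a log2 fold change of 1.10 (SE 0.24, edgeR adjusted p = 7.09e-04). Wt replicate 3, the highest wt library, had 1.71 times the mean of the others, and without it the log2 fold change was larger, 1.42. Ctsk was thus raised in that library as Ctss was, but differed in the opposite direction between the genotypes.

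Ctsl, the broad endopeptidase of lysosomes (chr13:64359337-64370890, minus strand), had 458, 391 and 430 CPM in wt LFs and 698, 881 and 844 CPM in the libraries labelled TKS5 KO. Each genotype was tight and the groups lay apart. Ctsl rose 1.89-fold, with a log2 fold change of 0.92 (SE 0.20, edgeR adjusted p = 7.65e-04). On the authors' normalized counts it was 0.29 and was not called (limma adjusted p = 0.222), and the adjusted p over the 21 alternatives ran from 8.11e-06 to 0.222.

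Both cystatins rose by about as much. Cst3, cystatin C, the main secreted inhibitor of cysteine cathepsins (chr2:148871722-148875692, minus strand), had 457, 323 and 329 CPM in wt LFs and 806, 790 and 732 CPM in the libraries labelled TKS5 KO. Its difference was 2.10-fold, with a log2 fold change of 1.07 (SE 0.21, edgeR adjusted p = 2.40e-04). Cstb, cystatin B or stefin B, which stays in the cytosol and the nucleus (chr10:78425669-78427622, plus strand), had 411, 284 and 352 CPM against 723, 849 and 620 CPM. It was 2.09-fold higher, with a log2 fold change of 1.07 (SE 0.21, edgeR adjusted p = 3.21e-04). For neither gene did the groups overlap, and wt replicate 3 lay between the other wt libraries for both.

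Transcript length was taken from the longest GENCODE M21 transcript of each gene, which need not be the one expressed in these cells. By this measure the cystatin transcripts are the shortest of the 10, at 860 bases for Cst3 and 603 for Cstb, beside a median of 3204 over the tested genes. Across 10339 tested genes the log2 fold change fell with transcript length (Spearman's rho -0.40, a description, since genes are not independent and share the 6 libraries). After correction for this trend the log2 fold change was 0.50 for Cst3 (edgeR adjusted p = 0.0601) and 0.39 for Cstb (edgeR adjusted p = 0.138), and neither was called. With length and GC content corrected together it was 0.81 for Cst3, which was called (edgeR adjusted p = 0.00302), and 0.28 for Cstb, which was not (edgeR adjusted p = 0.297). Over the 21 alternatives the adjusted p ran from 9.04e-07 to 0.0601 for Cst3 and from 4.03e-06 to 0.297 for Cstb. Ctsl, whose longest annotated transcript was the longest of the 10 at 6168 bases, had a larger value after the length correction, 1.38. This value rests on that choice of transcript, and other choices were not tested. Ctsk, at 1512 bases, had 0.78 and kept its call.

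**Figure D4:**
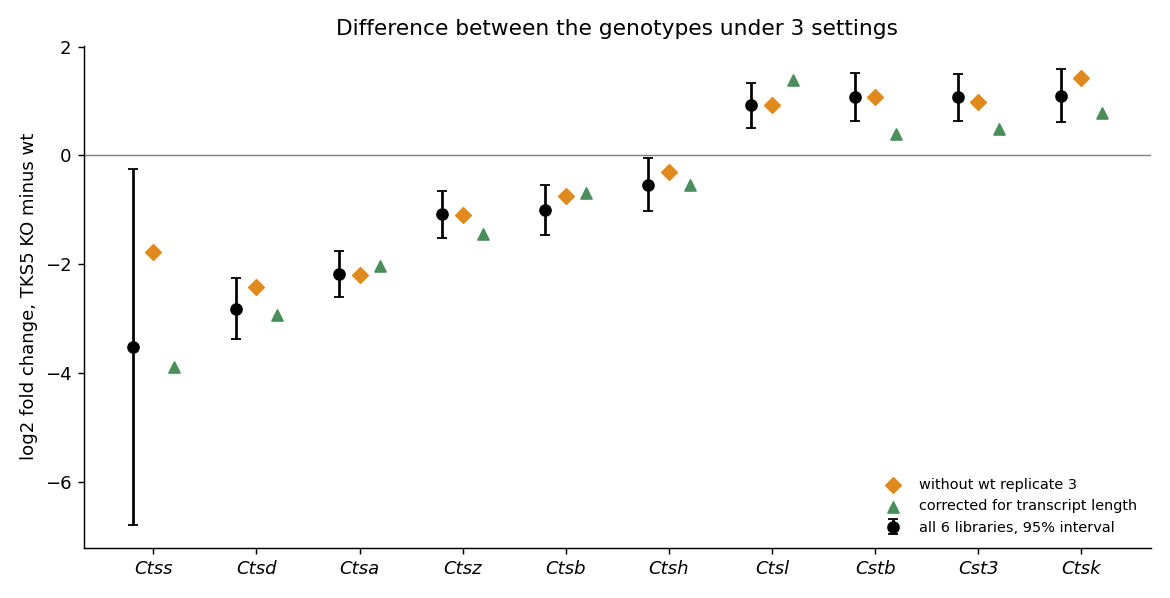
Log2 fold change (TKS5 KO minus wt) of each gene with its 95% interval over all 6 libraries, without wt replicate 3 and after correction for transcript length. The value of Ctss moves from -3.52 to -1.77 without wt replicate 3, and Cst3 and Cstb move to 0.50 and 0.39 with the length correction, while no value crosses 0.

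Summed over the family, the 8 cathepsins had 3553, 4323 and 6937 CPM in wt LFs and 1763, 1879 and 1812 CPM in the libraries labelled TKS5 KO, without overlap (exact permutation p = 0.1). In wt LFs Ctsd made up most of this sum. Without Ctsd the other 7 had 1379, 1470 and 1976 CPM against 1204.5, 1439 and 1387 CPM, and the groups overlapped (exact permutation p = 0.3). The cystatins summed to 868, 607 and 681 CPM in wt LFs and to 1529, 1639 and 1352 CPM in the other libraries (exact permutation p = 0.1). The sums of Quant-seq counts compare the libraries with each other and include the pairs whose reads are shared.

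The other members of both families gave little signal. Of 15 further cathepsin genes, 5 had any count and 3 were tested. Ctsf, a papain-type cathepsin, fell from 22.8 ± 3.45 to 5.66 ± 2.05 CPM (SD, n = 3), a log2 difference of -2.00 (edgeR adjusted p = 9.90e-05). Ctsc, which activates the serine proteases of immune cells, had a log2 fold change of -0.30 and Ctsw, whose 3′ end overlaps the opposite-strand gene Fibp, had 0.15, and neither passed the test (edgeR adjusted p = 0.327 and 0.671). Of 19 further cystatin genes 17 were listed, 6 had any count and none had enough counts to be tested.

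Around the cathepsins stand the other proteins of the lysosome, given as lists by role. Of 32 further genes tested from the list of lysosomal enzymes, 20 were lower and 1 was higher, with a median log2 fold change of -0.97. The list also holds lysosomal proteins that are not enzymes, such as Grn, Psap and Gm2a. Gaa, the acid alpha-glucosidase that degrades glycogen, fell with a log2 fold change of -1.76 (edgeR adjusted p = 2.79e-06). Grn, the precursor of the granulins, had -2.35 (edgeR adjusted p = 1.93e-07), with counts within 4.36% of those of its opposite-strand neighbour Fam171a2. The gene called higher, Gla, the alpha-galactosidase, had 1.72 (edgeR adjusted p = 2.09e-06), and its 3′ end overlaps the opposite-strand gene Rpl36a, a ribosomal protein gene with more counts in every library. Genes of this list were thus called lower at 20 of 32, beside 22.1% of all genes. Galns, with 20, 30 and 76 counts for wt LFs and 7, 2 and 3 in the other libraries, passed the filter on low counts only through the wt libraries. Such a gene can be called lower but not higher, so the shares of all genes are not a like comparison for such genes.

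Of 14 membrane proteins of the lysosome 6 were lower and 3 higher, with a median of -0.43, beside 22.1% lower and 22.8% higher among all genes, a share near which the higher calls lay. Mcoln1, the calcium channel of the lysosome, had a log2 fold change of -2.30 (edgeR adjusted p = 3.97e-06), and Laptm4a, a small membrane protein of late endosomes, had 1.32 (edgeR adjusted p = 4.14e-05). Lamp1, a main glycoprotein of the membrane, had -1.43 (edgeR adjusted p = 1.63e-05), with counts within 0.684% of those of the opposite-strand gene Grtp1.

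Of 16 listed subunits of the proton pump, the v-ATPase that acidifies the lysosome, 6 were lower and 5 higher, with a median of -0.17. Calls went in both directions, as among all genes (22.1% lower and 22.8% higher). The list does not hold every subunit. Tcirg1, which it leaves out, was called lower (log2 fold change -0.86, edgeR adjusted p = 0.0160), and other unlisted subunits were not counted. Atp6v0e, of the membrane sector, rose by 1.75 on the log2 scale (edgeR adjusted p = 6.71e-07). The accessory subunit Atp6ap1 had -1.32 (edgeR adjusted p = 3.04e-05) and Atp6v0d1 -1.13 (edgeR adjusted p = 1.45e-04). Of 13 genes that tag and sort lysosomal enzymes 4 were lower and 1 higher, with a median of -0.42. The 3 with the smallest adjusted p were adaptor genes, Gga2 at -1.03, Ap1g1 at -0.93 and Ap1b1 at -0.88 (edgeR adjusted p = 8.47e-04, 0.00106 and 0.00642).

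Over these 4 lists 36 of 75 tested genes were lower and 10 higher, with a median log2 fold change of -0.65, beside 22.1% and 22.8% of all genes. Without wt replicate 3, 31 were lower and 11 higher, beside 18.0% and 20.2% of all genes. Genes such as Galns and Cln3 passed the filter on low counts only through the wt libraries and could be called lower but not higher. For such genes the shares of all genes are not a like comparison. The summed macrophage markers were also lower in the libraries labelled TKS5 KO, and the part of macrophages in the levels of these genes was not tested. Of the transcription factors that bind the motifs shown for Ctsd, Ctsa and Ctsl, Tfe3 fell with a log2 fold change of -1.38 (edgeR adjusted p = 1.98e-04). Ctsl rose, and whether these factors act on any of the members was not tested. Tfeb had 6, 5 and 12 counts for wt LFs and 4, 3 and 1 in the other libraries, and Mitf had 4, 2 and 4 against 0 in each, and both were too low to be tested.

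**Figure D5:**
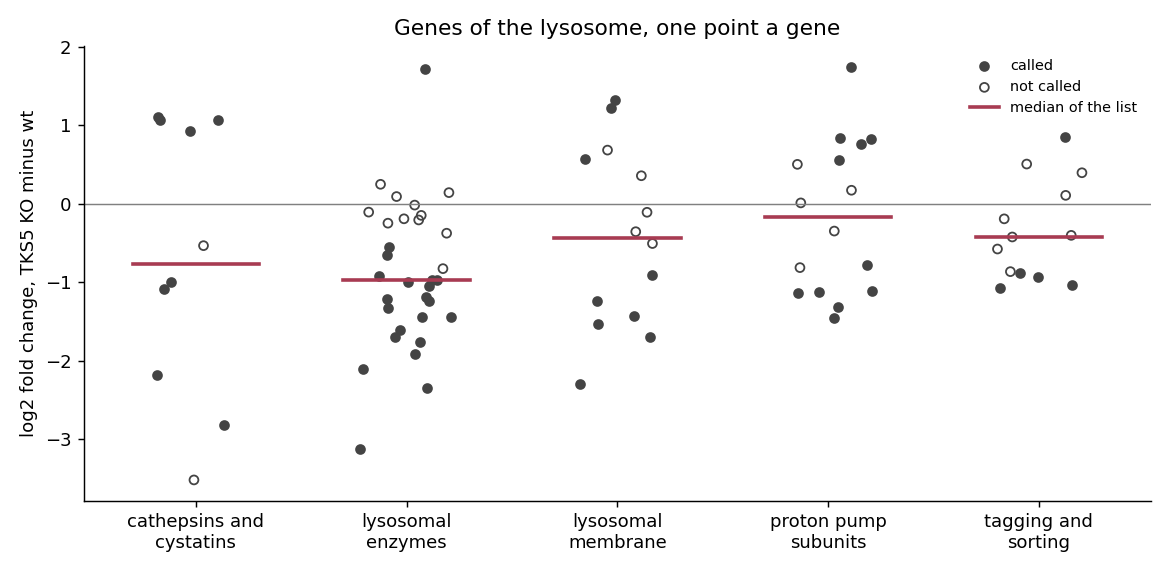
Log2 fold change (TKS5 KO minus wt) of every tested gene of 5 lists, filled where called and open where not, with a red bar at the median of each list. The medians are -0.77 for the cathepsins and cystatins, -0.97 for the list of other lysosomal enzymes, -0.43 for the membrane proteins, -0.17 for the listed subunits of the proton pump and -0.42 for tagging and sorting.

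The scaling of the libraries shifts all values together. With the library totals in place of TMM, the median of all genes moved from -0.05 to -0.46, and 13.2% of the tested genes were called higher and 37.9% lower. The members kept their directions, with 4 higher and 5 lower, Ctsh being the added one. Their median of -1.18 under this scaling stood 0.72 below that of all genes, as it did with TMM.

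The genes whose log2 CPM followed 3 of the members most closely over the 6 libraries were ranked by Pearson's r, as a description. For Ctss they were Dis3 (0.992), Lat2 (0.988) and the macrophage marker Lyz2 (0.987). For Ctsk they were Ube2c, Snrnp25 and Dnajc9 (each 0.998). For Cst3 they were Oaz1-ps, AC102106.1 and Atp5b (each 0.997). The points share the 6 libraries, and a difference between the genotypes alone gives a high r.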

How the data were processed

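Quant-seq of TGFβ-treated primary LFs gave 3 wt and 3 TKS5 KO libraries. For the raw counts the authors trimmed reads (Trim Galore), aligned them to GRCm38 (HISAT2, then BOWTIE2) and counted those in the 3′ UTR of each gene (metaseqR2). Whether the counting kept to 1 strand is not given in the sources used here. The authors' normalized counts, deposited as whole numbers after EDASeq, were used as a score, in 1 alternative. Sorted, these values are identical in the 6 libraries. The 10 genes and the lists were chosen with earlier results of these data known.

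Of the 55364 genes, 55104 matched GENCODE M21 symbols and coordinates, and 33644 had 0 counts in all libraries. The test was edgeR 4.0.16 under R 4.3.3 (robust quasi-likelihood on raw counts, filterByExpr, TMM, Benjamini-Hochberg adjustment over all genes tested), after a check on simulated data. Single genes were compared by exact two-sided permutation tests. Besides the 10 genes and Sh3pxd2a, the named genes are the up to 3 of each list with the smallest adjusted p, the defining macrophage markers with Lyz2, the 3 genes most like Ctss, Ctsk and Cst3, genes that share a 3′ end, and genes too low to test that bear on a result. Alternatives were DESeq2 1.42.0, limma 3.58.1 (voom, and the normalized counts with a pseudocount of 1), other scalings and filters, length and GC corrections, a replicate block and leaving out each library. With totals of 1344507 to 2369882 counts, low genes are imprecise.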

Additional observations from a re-analysis of the deposited data

How the results depend on the processing

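In 21 alternatives, 196 of the 210 fold changes of the 10 genes kept their direction and their side of the threshold, 9 passed the threshold anew (Ctsh 5 times and Ctss 4 times), 5 lost it and none reversed. Cst3, Cstb and Ctsl were the genes that lost it. With the length correction 2 members were called higher (Ctsk and Ctsl). With sharing genes left out, an alternative chosen after seeing the data, 2 were called lower. The median log2 fold change of the members was -0.97 on the authors' normalized counts, -1.18 with library totals, -0.58 with the replicate block and length correction together, and ran from -0.94 to -0.53 when 1 library was left out, lowest without wt replicate 1 and highest without wt replicate 3. With library totals 4 lysosomal genes were called higher and 49 lower, beside 10 and 36. Genes called numbered between 3705 (at least 10 counts in every library) and 5294 (library totals, 1370 of them higher and 3924 lower), beside 4642 (2356 and 2286).

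Libraries of the same number had correlations of -0.001, -0.06 and 0.08 in their deviations, so no pairing by number showed in these values. They cannot tell whether libraries of the same number came from littermates or were handled together. With the replicate block 4668 genes were called and 4 members in each direction. Why values moved between settings was not tested. Ctss had 17 to 29 counts per library labelled TKS5 KO, and each genotype had 3 libraries.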
